A study of Homo sapiens with 6 samples.

Results

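Integrins are cell surface receptors made of an alpha and a beta chain that tie the matrix outside the cell to the actin or keratin cytoskeleton inside it. Laminins are secreted trimers of an alpha, a beta and a gamma chain that form the scaffold of basement membranes, and several integrins are their receptors. The genes described here were taken by symbol: every integrin alpha, integrin beta and laminin chain gene on a probe set that the array's annotation ties to a single gene. This gave 35 genes of 18132 in all, namely 18 integrin alpha, 7 integrin beta and 10 laminin genes, read by 101 probe sets. Members of these families without such a probe set in the annotation were not analysed here.

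The arrays hold RNA of T24, a cell line established from a human bladder carcinoma, and ask how it differs after MAP30, a ribosome-inactivating protein of bitter melon. One group of 3 arrays carried RNA of T24 cells that the labels call normal, used here as the control, and the other group of 3 arrays carried RNA of T24 cells that had received MAP30 at 10 µg/ml and were collected at 48 hours. Cells of both groups grew in DMEM with 10% serum per the labels, which give neither a vehicle nor a collection time for the control cells. The comparison asks which integrin and laminin transcripts differ after MAP30.

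The deposited values are expression values on a log scale, taken here as log2, that had been centred, probe set by probe set, on the median of all 6 arrays. A value of 0 is thus the middle of the 6 arrays, and the values carry no information on how strongly a gene was expressed. T24 identity could therefore not be checked from marker levels. Within groups the SD of the difference between any 2 arrays over all genes was 0.105 to 0.121, against 0.617 to 0.621 between groups. Over the 35 integrin and laminin genes it was 0.0791 to 0.144 within and 0.963 to 1.02 between groups. The log2 ratio of 3' over 5' probe sets, a sign of RNA integrity, was higher with MAP30 by 0.158 for ACTB and 0.0426 for GAPDH, and its part in the results was not tested. In RNA from a whole culture, fewer cells that express a gene and less of its RNA per cell cannot be told apart.

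With MAP30, 23 of the 35 genes passed, 9 as higher and 14 as lower, and 12 missed an adjusted p of 0.05 (limma, two-sided, Benjamini-Hochberg over all genes). The share called, 65.7%, stands beside a background of 57.5% of all genes, with 26.9% higher and 30.6% lower. The arrays of the groups did not overlap in 22 of the 35 genes, where the background was 62.6%. Called changes of at least 1.5-fold numbered 10, with 4 rises and 6 falls, and such a call was made for 22.1% of all genes (11.2% up, 10.9% down). At 2-fold or more there were 4 rises (background 5.42%) and 2 falls (background 4.13%). The rises were the laminin genes LAMA2, LAMB3 and LAMA1 and the integrin gene ITGAM. The falls were the integrin genes ITGB8, ITGA2 and ITGB5 and the laminin genes LAMC1, LAMB1 and LAMA5. The median log2 fold change was -0.03 over the 35 genes and -0.02 over all genes. These counts depend on the scaling of the arrays. Centring arrays on their spiked-in hybridization controls left 6 of the 35 higher and 24 lower, while centring on spiked-in poly-A controls gave 18 higher and 10 lower. The corresponding medians of all genes were -0.23 and 0.14.

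**Figure D1:**
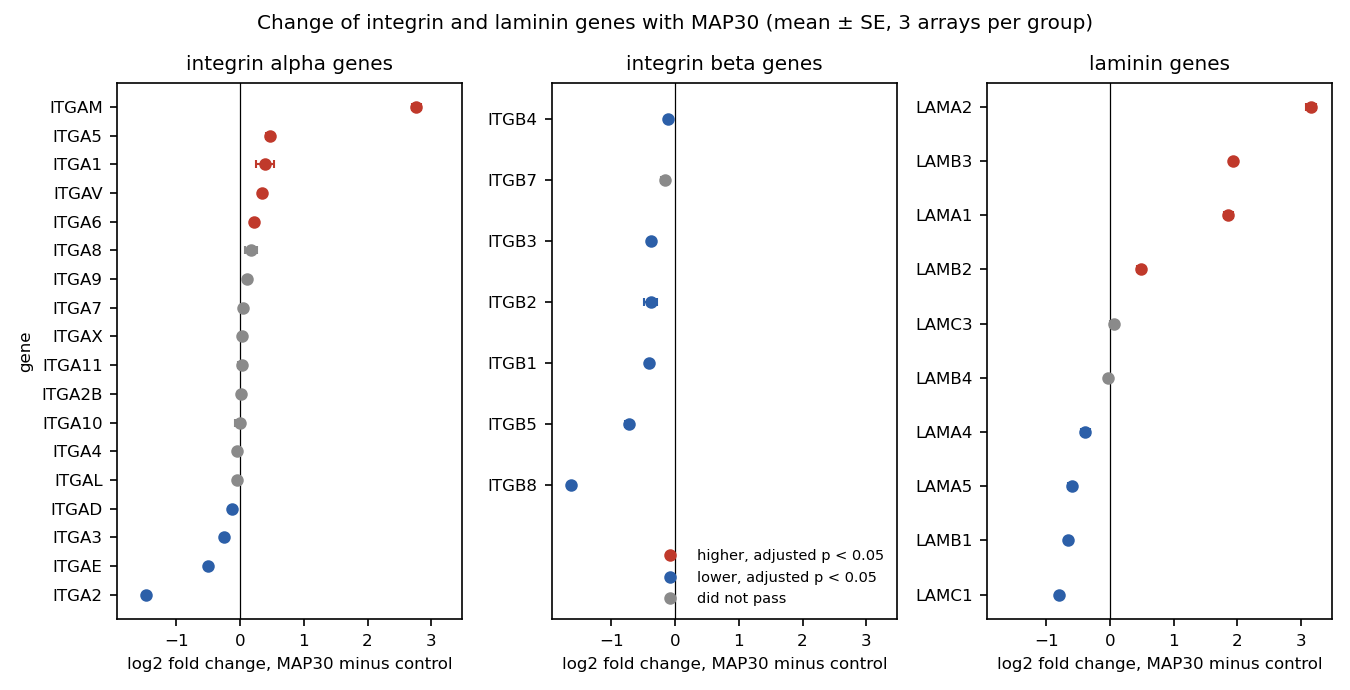
Log2 fold change of each gene (points, mean of 3 MAP30 arrays minus mean of 3 control arrays; bars, SE) for integrin alpha, integrin beta and laminin genes. ITGAM and LAMA2 lie farthest to the right at 2.76 and 3.15, and none of the 7 beta genes lies above 0 on the deposited scaling (with poly-A-control centring ITGB4 stood at 0.05 and ITGB7 at 0.008).

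Among the laminins, the alpha chain gene LAMA2 had the largest change of all 35 genes. LAMA2 encodes the alpha chain of laminins in the basement membranes of muscle and Schwann cells. Its 3 control arrays stood at -1.67, -1.44 and -1.74 and its 3 MAP30 arrays at 1.55, 1.44 and 1.62. Every MAP30 array was far above every control array, and the gene rose 8.89-fold (log2 fold change 3.15 ± 0.08 SE, adjusted p = 6.26e-08 by limma). This value rests on 1 probe set, and with quantile normalization the rise was 6.08-fold. LAMA1, the alpha chain of laminins of early embryonic basement membranes, also has 1 probe set. Its control arrays stood at -0.81, -0.99 and -1.07 and its MAP30 arrays at 0.98, 0.91 and 0.81, a rise of 3.63-fold (1.86 ± 0.07, adjusted p = 3.72e-07). Every MAP30 array lay above every control array.

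LAMB3, the beta chain of the laminin that anchors epithelia at hemidesmosomes, varied little between replicates. The control arrays stood at -0.95, -0.96 and -0.99 and the MAP30 arrays at 0.95, 0.95 and 0.97. It rose 3.8-fold (1.92 ± 0.03, adjusted p = 1.04e-08), and its 2 probe sets rose by 1.85 and 2.00. LAMB2, the beta chain of neuromuscular and glomerular basement membranes, rose less. With control arrays at -0.14, -0.34 and -0.31 and MAP30 arrays at 0.14, 0.26 and 0.27, its change was 1.4-fold (0.49 ± 0.06, adjusted p = 0.000262). LAMB2 was read by 1 probe set.

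The chains of the widespread epithelial laminins went the other way. LAMC1, the gamma chain shared by most laminins, stood at 0.44, 0.39 and 0.39 in control and at -0.41, -0.41 and -0.36 with MAP30. It was 1.74-fold lower (-0.80 ± 0.03, adjusted p = 6.12e-07), and all 5 of its probe sets were lower, with log2 fold changes from -1.14 to -0.46. LAMB1, the beta chain that most often joins it, stood at 0.34, 0.38 and 0.30 in control and at -0.29, -0.32 and -0.33 with MAP30, 1.57-fold lower (-0.65 ± 0.04). LAMA5, the main alpha chain of adult epithelial basement membranes, stood at 0.26, 0.41 and 0.30 in control and at -0.26, -0.35 and -0.22 with MAP30, 1.52-fold lower (-0.60 ± 0.05). For these 3 genes the groups were apart in every array and every probe set was called lower. LAMA4, an alpha chain of vascular basement membranes, fell by 0.39 on the log2 scale (adjusted p = 0.00223), with 2 of its 4 probe sets lower and 2 not called. LAMB4 (-0.03) and LAMC3 (0.06) did not pass.

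Differences between chains within an array do not change when a whole array is shifted by a constant, as control centring does, but quantile normalization moves genes unequally. The LAMB3 value minus the LAMB1 value was -1.30, -1.34 and -1.28 in the control arrays and 1.23, 1.27 and 1.31 in the MAP30 arrays. The LAMB3 to LAMB1 ratio was thus 5.97-fold higher with MAP30 (2.58 ± 0.03 SE on the log2 scale, n = 3 per group; exact permutation p = 0.1, the smallest that 3 against 3 arrays can give). The ratio of LAMB2 to LAMB1 was 2.2-fold higher (1.14 ± 0.09), and that of LAMA2 to LAMA5 was 13.5-fold higher (3.76 ± 0.06). With quantile normalization these differences were 2.36 for LAMB3 and LAMB1, 1.15 for LAMB2 and LAMB1 and 3.20 for LAMA2 and LAMA5. LAMA5 and LAMB1 stayed close to LAMC1: their changes differed from that of LAMC1 by 0.20 ± 0.07 and 0.14 ± 0.04. Each of these differences kept the control arrays apart from the MAP30 arrays, and each had the same exact permutation p of 0.1. Those of LAMA5 and LAMB1 from LAMC1 depended on the probe sets averaged. They were 0.015 and 0.058 when probe sets marked as able to cross-hybridize were dropped. The pairs were chosen after values were seen. Where a gene called higher was set against one called lower, the separation was fixed by that choice and adds no support.

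**Figure D2:**
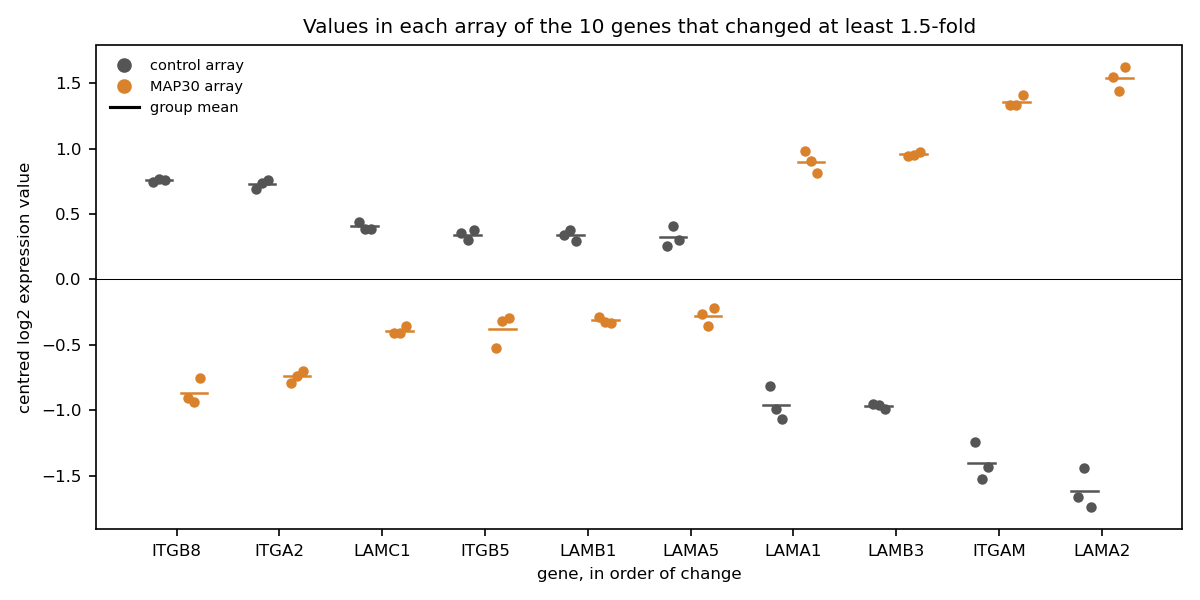
Centred log2 value in each control and MAP30 array (points) with group means (lines) for the 10 genes that passed with a change of at least 1.5-fold, in order of change. The groups do not overlap in any of the 10 genes. Centring places the groups of a gene on opposite sides of 0, so heights cannot be compared between genes.

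The integrin beta genes, whose products pair with the alpha chains and carry the signal to the cytoskeleton, were lower in 6 of 7 and higher in 0. With hybridization-control centring 7 were lower, and with poly-A-control centring 4 were lower, namely ITGB1, ITGB3, ITGB5 and ITGB8, and 0 higher. Of all 18132 genes, 5553 (30.6%) were lower on the deposited scaling. With hybridization-control centring 11558 of them were lower, and with poly-A-control centring 3754. The median log2 fold change of the 7 beta genes was -0.38, against -0.02 over all genes. ITGB8, whose product binds latent TGF-beta together with the alpha V chain, fell the most. It stood at 0.74, 0.77 and 0.76 in control and at -0.91, -0.94 and -0.76 with MAP30, which is 3.09-fold lower (-1.63 ± 0.05, adjusted p = 1.46e-07). The groups were far apart, though the 4 probe sets of ITGB8 differed widely in size, from -0.36 to -4.14, all lower. The median over its probe sets gave -1.01, and quantile normalization gave -2.13. ITGB5, a vitronectin receptor chain read by 1 probe set, stood at 0.35, 0.30 and 0.37 in control and at -0.52, -0.32 and -0.30 with MAP30, 1.65-fold lower (-0.72 ± 0.06).

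ITGB1, the partner of the largest number of alpha chains, stood at 0.19, 0.23 and 0.19 in control and at -0.25, -0.21 and -0.16 with MAP30. It was 1.33-fold lower (-0.41 ± 0.04, adjusted p = 3.7e-05), and 4 of its 5 probe sets were lower while the other one, at 0.05, was not called. ITGB3, a chain of the platelet fibrinogen and vitronectin receptors, was 1.3-fold lower (-0.37 ± 0.04) with 6 of 7 probe sets lower. ITGB2, the beta chain of leukocyte integrins, was at 0.33, 0.01 and 0.32 in control and at -0.01, -0.28 and -0.21 with MAP30 (-0.38 ± 0.10, adjusted p = 0.0146). It was read by 1 probe set. The groups of ITGB2 nearly touched, and the call was lost without control replicate 3 (-0.33, adjusted p = 0.0511), without MAP30 replicate 3 (-0.36, adjusted p = 0.0514) and with poly-A-control centring (-0.22).

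ITGB4, the hemidesmosome chain, stood at 0.06, 0.07 and 0.02 in control and at -0.03, -0.09 and -0.08 with MAP30. The change was small (-0.11 ± 0.03, adjusted p = 0.0247) and 2 of its 8 probe sets were lower. The call was lost on leaving out 1 of 4 arrays: control replicate 1 (-0.11), control replicate 2 (-0.10), MAP30 replicate 2 (-0.10) and MAP30 replicate 3 (-0.11). It was also lost with the median over probe sets (-0.09) and with quantile normalization (-0.09), and ITGB4 stood at 0.05 with poly-A-control centring. ITGB7, a chain of gut-homing lymphocyte integrins, was at -0.16 and did not pass (adjusted p = 0.0965). Without control replicate 1 it passed at -0.23.

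The alpha chains, which give a pair most of its choice of ligand, split into 5 higher, 4 lower and 9 not called. Thus 50% were called, against 57.5% of all genes. On hybridization-control centring the split was 2 higher to 11 lower, and on poly-A-control centring it was 12 to 2. Calls over all genes swung the same way, so the swing is not particular to alpha chains. Of those calls 46.8% were higher as deposited, 21.1% under the first centring and 70.3% under the second. Among the collagen receptor chains, ITGA2 stood at 0.69, 0.74 and 0.76 in control and at -0.79, -0.74 and -0.70 with MAP30. It was 2.77-fold lower (-1.47 ± 0.04, adjusted p = 6.34e-08), and its 2 probe sets moved alike, by -1.45 and -1.49. ITGA1 was at -0.205, -0.548 and 0.004 in control and at 0.303, 0.110 and -0.004 with MAP30, so the groups overlapped. Its call was marginal (0.39 ± 0.14, adjusted p = 0.0485) and its 1 probe set was not called in the fit of single probe sets. The call was lost when any array but control replicate 3 was left out: control replicate 1 (0.41) or 2 (0.24), or MAP30 replicate 1 (0.30), 2 (0.40) or 3 (0.46). It was also lost with the replicate block (adjusted p = 0.051). ITGA10 (-0.01) and ITGA11 (0.02) did not pass.

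The laminin receptor chains changed little. ITGA6 stood at -0.11, -0.09 and -0.08 in control and at 0.13, 0.12 and 0.12 with MAP30, 1.16-fold higher (0.21 ± 0.03, adjusted p = 0.000575). The groups were apart, but the value was 0.004 with hybridization-control centring. Its 3 probe sets ran from 0.06 to 0.43. ITGA3 was 1.19-fold lower (-0.25 ± 0.04, adjusted p = 0.000887), with 2 probe sets lower at -0.31 and -0.55 and 1 not called at 0.10, and stood at -0.09 without passing with poly-A-control centring. ITGA7, the chain best known from muscle, was at 0.04 and did not pass.

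Among the chains that read the RGD motif of fibronectin and vitronectin, ITGA5, the fibronectin receptor chain, stood at -0.17, -0.17 and -0.24 in control and at 0.21, 0.23 and 0.37 with MAP30. It rose 1.38-fold (0.46 ± 0.05, adjusted p = 0.000106), and its 4 probe sets rose alike, by 0.41 to 0.51. ITGAV, the partner of several beta chains, stood at -0.23, -0.13 and -0.20 in control and at 0.16, 0.22 and 0.09 with MAP30, 1.27-fold higher (0.34 ± 0.05, adjusted p = 0.000376). The groups were apart, yet ITGAV was the only gene of the 35 with probe sets called in both directions: 3 were higher, at 0.20, 0.61 and 1.28, and 1 was lower, at -0.18. Its value was 0.19 with the median over probe sets, 0.70 when probe sets marked as able to cross-hybridize were dropped, and 0.14 without passing with hybridization-control centring. ITGA8 (0.17) and the platelet chain ITGA2B (0.01) did not pass, and ITGA8 passed at 0.26 without control replicate 1. ITGA4, which binds VCAM1 and fibronectin (-0.04), and ITGA9, which binds tenascin C (0.11), did not pass, though 1 of the 3 ITGA9 probe sets was higher.

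Of the chains known mainly from leukocytes, ITGAM stood out. ITGAM encodes the alpha chain of complement receptor CR3 of myeloid cells. It stood at -1.25, -1.52 and -1.44 in control and at 1.33, 1.34 and 1.41 with MAP30. It rose 6.78-fold (2.76 ± 0.07, adjusted p = 5.58e-08), with its 3 probe sets at 1.42, 2.69 and 4.17. Without the probe set at 4.17, whose class can cross-hybridize, ITGAM was 4.15-fold higher (2.05). With quantile normalization it was 4.91-fold higher. ITGAE, which binds E-cadherin, stood at 0.23, 0.24 and 0.22 in control and at -0.32, -0.22 and -0.27 with MAP30, 1.41-fold lower (-0.50 ± 0.04). It was read by 1 probe set. ITGAD was at -0.12 ± 0.04 (adjusted p = 0.0216). Neither of its 2 probe sets was called, and the gene's call was lost with the replicate block (adjusted p = 0.0569), on leaving out control replicate 1 (-0.11) or 3 (-0.12) or MAP30 replicate 1 (-0.11), and with poly-A-control centring, where it stood at 0.04. ITGAL (-0.05) and ITGAX (0.03), both partners of ITGB2, did not pass.

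Markers of leukocytes were set beside ITGAM. On the deposited scaling 3 of 13 measured leukocyte markers passed (23.1%, against 57.5% of all genes), 2 as higher and 1 as lower, and their median log2 fold change was -0.02. Hybridization-control centring called 1 higher and 11 lower (median -0.22), whereas poly-A-control centring called 8 higher and 0 lower (median 0.15). LST1 was the one called higher under all 3 scalings. PTPRC, the pan-leukocyte phosphatase, was at 0.03 with 0 of 6 probe sets called, at -0.18 and called lower with hybridization-control centring, and at 0.19 and called higher with poly-A-control centring. SPI1, a transcription factor of myeloid cells, was at -0.20 and did not pass (adjusted p = 0.0908), but was called lower at -0.41 with hybridization-control centring. LST1, a leukocyte-specific transcript, rose by 1.87 and MS4A1 by 0.11, and CD14 fell by 0.26. None of the 3 MS4A1 probe sets was called singly. MS4A1 was not called with hybridization-control centring, nor CD14 with poly-A-control centring. Summed levels of these markers have no meaning in centred values, and the part of leukocyte RNA in the ITGAM result was not tested beyond these genes. GP1BA (-0.24) and GP9 (-0.14) were lower among 5 platelet markers. KDR (0.22) and TEK (0.14) rose among 7 endothelial markers, as did COL1A1 (0.14) among 7 fibroblast markers. Each of these 5 calls was lost with 1 of the control centrings. As deposited, 40%, 28.6% and 14.3% of the platelet, endothelial and fibroblast lists were called, against 57.5% of all genes. Under hybridization-control centring 0 were higher and 5, 4 and 6 lower in these lists, in this order. Under poly-A-control centring 1, 7 and 5 were higher and 0 lower. Of all 18132 genes, the first centring called 11558 lower and the second 8906 higher. Of 10 epithelial and urothelial markers 30% were called. EPCAM (0.96) rose, while KRT7 (-1.03) and KRT8 (-0.47) fell, and these 3 calls held under both control centrings.

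The alpha and beta genes were then set beside each other in the 23 known integrin pairs with both genes measured. On the deposited scaling the alpha gene was called higher and the beta gene lower in 9 pairs, and both were lower in 3. In 0 pairs were both higher, which was fixed because 0 beta genes were higher. These counts depend on the scaling. With hybridization-control centring ITGA1, ITGA6 and ITGAV were not called, and 11 alpha genes were lower. With poly-A-control centring ITGB2 and ITGB4 were not called, and 12 alpha genes were higher. The difference between the alpha and the beta gene within an array moved with MAP30 towards the alpha gene in 21 pairs. This count was also 21 under each of the 14 alternatives. Several of them cannot change such a difference, so the same count there adds no support. These are the control centrings, robust variances, the minimum fold and the replicate block. The sizes of the shifts varied under the others, namely other choices or summaries of probe sets, quantile normalization and leaving out arrays. The arrays of the groups did not overlap for 20 pairs, 18 towards alpha and 2 towards beta. In some pairs the alpha gene's arrays were already apart upward and the beta gene's apart downward. There the separation and its permutation p were fixed by the single genes and add no support. These pairs were ITGA5, ITGA6 and ITGAV with ITGB1, ITGAM with ITGB2, ITGA6 with ITGB4, and ITGAV with ITGB3, ITGB5 and ITGB8. For single genes the groups did not overlap in 62.6% of all genes, and the share among gene pairs in general was not computed. Many pairs share a gene, since ITGB1 enters 12 of them and ITGAV 4, so they are not independent.

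The largest shift was that of ITGAM against ITGB2, at 3.14 ± 0.12 SE. It was 2.67 with quantile normalization and 2.44 without probe sets of the classes that can cross-hybridize. ITGAV against ITGB8 followed at 1.97 ± 0.10, with the 2 genes moving apart from both sides. It was 2.47 with quantile normalization and 1.196 with the median over probe sets. ITGAV moved against ITGB5 by 1.07 ± 0.10, against ITGB1 by 0.75 ± 0.06 and against ITGB3 by 0.72 ± 0.06. The fibronectin receptor pair ITGA5 and ITGB1 shifted by 0.87 ± 0.03 and the hemidesmosome pair ITGA6 and ITGB4 by 0.33 ± 0.03. The pairs that moved towards beta were ITGA2 with ITGB1 (-1.06 ± 0.02) and ITGAE with ITGB7 (-0.34 ± 0.10). Each of these shifts had an exact permutation p of 0.1 (two-sided, n = 3 per group), the smallest possible, and with Benjamini-Hochberg adjustment over 23 pairs none could pass 0.05. The 3 pairs whose arrays overlapped were ITGAL and ITGAD with ITGB2 and ITGA4 with ITGB7.

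**Figure D3:**
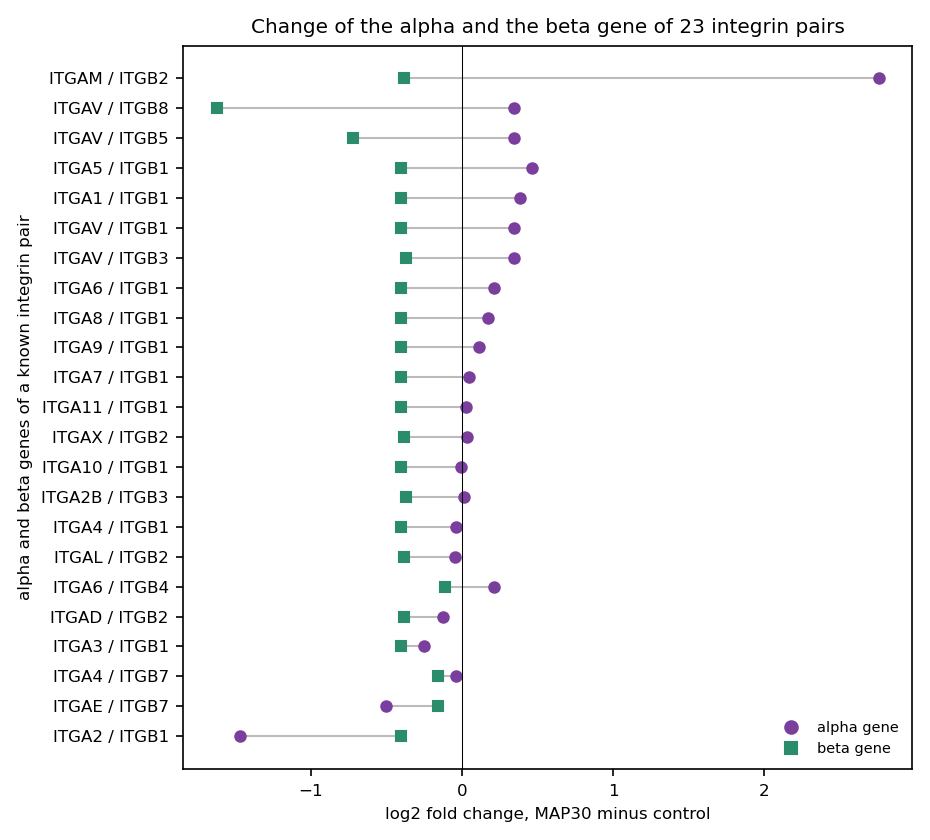
Log2 fold change of the alpha gene (circles) and the beta gene (squares) of 23 known integrin pairs, in order of the difference. In 21 pairs the alpha gene lies to the right of its beta gene. Genes that enter several pairs are drawn several times.

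Probe sets of a gene can read different transcripts or ends of transcripts. Of the 101 probe sets, 18 were higher, 35 lower and 48 not called when fitted singly, so 52.5% were called. Of all probe sets 56.8% were called, 26.5% higher and 30.3% lower. Among the 25 genes with more than 1 probe set, 8 had every probe set called the same way. Another 8 had some called and some not, and 9 had none called. The widest spread was in ITGB8, where the probe set with the largest fall had control arrays at 2.003, 2.013 and 2.002 and MAP30 arrays at -2.050, -2.344 and -2.002. Its probe set with the smallest fall had control arrays at 0.10, 0.08 and 0.21 and MAP30 arrays at -0.33, -0.08 and -0.29. In ITGAV, the probe set with the largest rise stood at -0.55, -0.62 and -0.68 in control and at 0.55, 0.76 and 0.69 with MAP30. The one that fell stood at 0.12, 0.07 and 0.10 in control and at -0.07, -0.10 and -0.09 with MAP30.

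**Figure D4:**
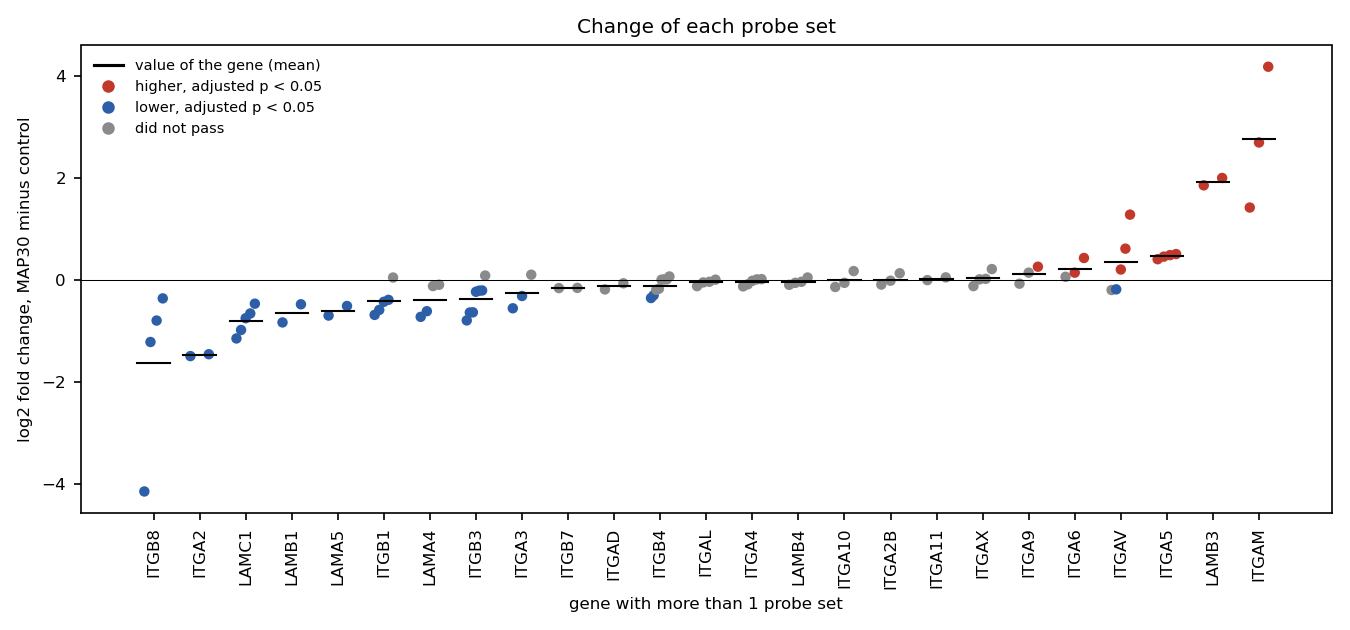
Log2 fold change of each probe set (points, coloured by call) of the 25 genes with more than 1 probe set, with the value of the gene as a line. The probe sets of ITGB8, ITGAM and ITGAV spread widely, those of ITGA2, LAMB3 and ITGA5 lie close together.

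Promoter sequences in the RefSeq table (GRCh38.p14), from 250 bases before to 50 bases after a gene's start, matched 24 of the 35 genes by symbol. They are shown for 3 of the genes with the largest rises and for the integrins with the largest falls, 5' to 3' on the gene's own strand. Capitals mark the motifs searched on both strands: the AP-1 motif TGANTCA, the GC box GGGCGG, the TATA box TATAAA and the EGR1 motif GCGTGGGCG, the last of which can overlap a GC box. LAMB3 has 3 entries in the table, and the one with an AP-1 motif is shown.
LAMA2, chr6:128882888-128883187, plus strand: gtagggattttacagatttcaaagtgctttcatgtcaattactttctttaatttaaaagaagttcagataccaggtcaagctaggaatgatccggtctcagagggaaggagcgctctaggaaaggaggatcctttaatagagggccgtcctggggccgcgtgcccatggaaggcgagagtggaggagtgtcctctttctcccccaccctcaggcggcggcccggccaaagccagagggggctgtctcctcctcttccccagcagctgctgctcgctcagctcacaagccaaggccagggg
LAMB3, chr1:209651325-209651624, minus strand: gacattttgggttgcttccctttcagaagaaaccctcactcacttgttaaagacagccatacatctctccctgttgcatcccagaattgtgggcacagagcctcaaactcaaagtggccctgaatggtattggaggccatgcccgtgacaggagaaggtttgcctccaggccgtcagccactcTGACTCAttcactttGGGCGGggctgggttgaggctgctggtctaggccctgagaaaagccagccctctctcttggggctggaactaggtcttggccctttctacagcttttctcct
ITGAM, chr16:31259725-31260024, plus strand: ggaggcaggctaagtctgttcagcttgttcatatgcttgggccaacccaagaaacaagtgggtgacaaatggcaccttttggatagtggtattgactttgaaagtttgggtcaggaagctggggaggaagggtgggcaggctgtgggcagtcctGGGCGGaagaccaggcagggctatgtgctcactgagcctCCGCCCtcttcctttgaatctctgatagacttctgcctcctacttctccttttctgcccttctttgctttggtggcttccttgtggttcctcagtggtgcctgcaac
ITGB8, chr7:20330650-20330949, plus strand: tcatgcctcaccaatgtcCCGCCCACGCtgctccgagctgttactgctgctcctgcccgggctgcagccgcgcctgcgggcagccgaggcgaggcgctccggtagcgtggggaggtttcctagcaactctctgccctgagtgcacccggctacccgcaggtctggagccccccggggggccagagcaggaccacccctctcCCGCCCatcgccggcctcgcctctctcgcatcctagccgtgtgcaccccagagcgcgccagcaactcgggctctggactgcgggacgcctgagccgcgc
ITGA2, chr5:52989102-52989401, plus strand: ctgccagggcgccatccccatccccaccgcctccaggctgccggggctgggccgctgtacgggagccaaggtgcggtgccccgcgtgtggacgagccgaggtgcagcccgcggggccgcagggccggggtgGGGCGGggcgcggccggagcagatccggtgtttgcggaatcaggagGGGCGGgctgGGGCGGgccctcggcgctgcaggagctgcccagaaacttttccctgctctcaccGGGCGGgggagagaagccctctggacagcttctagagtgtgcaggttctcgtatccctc

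The promoter of LAMA2 held none of the 4 motifs in this window. The LAMB3 entry shown held an AP-1 motif and a GC box, whereas its other entries each held 1 GC box and no AP-1 motif. The promoter of ITGAM held 2 GC boxes and that of ITGA2 4 GC boxes. The ITGB8 window held 2 GC boxes, and the EGR1 motif overlapped the first. Of the 24 genes 13 had a GC box in a promoter, or 18 of their 31 promoter entries (58.1%), against 45% of all 35116 entries. The AP-1 motif was in 2 of 24 genes, ITGA5 and LAMB3, or 6.45% of their entries against 7.71% of all. The TATA box was in ITGA6 and ITGB1, 6.45% against 11.5%, and the EGR1 motif in ITGB8 alone, 3.23% against 0.795%. These matches describe the letters of the windows and are not evidence of binding.

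The genes that act with integrins and laminins were counted in lists. Of 30 measured adhesion adaptors and signalling genes 22 passed, 9 upward and 13 downward, at a median of -0.05. The balance turned with the scaling, from 5 higher and 19 lower with hybridization-control centring to 14 higher and 7 lower with poly-A-control centring. LPXN, which encodes leupaxin of the paxillin family, rose 5.78-fold (2.53 ± 0.06), NEDD9, a docking protein of focal adhesions, 3.55-fold, and ZYX, which encodes zyxin, 1.4-fold. TNS3, a tensin that binds beta tails, was 2.23-fold lower, TLN1, the talin that activates integrins, 1.68-fold lower, and FERMT1, which encodes kindlin-1, 1.45-fold lower. Only 2 of the 3 LPXN probe sets were called. Of 7 integrin inactivators and traffickers ITGB1BP1 (-0.73), which encodes an inhibitor that binds the beta 1 tail, DOK1 (-0.54), SNX17 (-0.21) and RAB25 (-0.20) were lower. RAB21 (0.92), a GTPase that moves integrins through endosomes, and SHARPIN (0.10) were higher. SHARPIN was not called with hybridization-control centring, nor SNX17 and RAB25 with poly-A-control centring (RAB25 at -0.03), and the arrays of the groups overlapped for RAB25. The list had 1 higher and 5 lower with the first centring and 3 higher and 2 lower with the second.

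Of 31 integrin ligands other than laminins 20 passed, 11 upward and 9 downward, at a median of 0.00. The split was 7 to 20 on hybridization-control centring and 17 to 5 on poly-A-control centring. TGFBI (1.27), a matrix protein induced by TGF-beta, FGG (1.10), the gamma chain of fibrinogen, and ICAM2 (1.07), a ligand of leukocyte integrins, rose the most. THBS2 (-1.44), a thrombospondin, L1CAM (-1.17) and FN1 (-1.05), which encodes fibronectin, fell the most, and all 8 probe sets of FN1 were lower. Of 14 basement membrane partners of laminins 9 passed, 2 upward and 7 downward, at a median of -0.12. The counts became 2 higher and 12 lower with hybridization-control centring and 6 higher and 5 lower with poly-A-control centring. The collagen IV chain genes COL4A2 (-1.55) and COL4A1 (-1.38) and COL18A1 (-1.18) fell, whereas COL4A6 (1.31) rose in all 7 probe sets and NTN4 (0.66), a netrin that binds laminin, rose. Of 7 hemidesmosome and non-integrin laminin receptor genes 5 passed, 1 upward and 4 downward, at a median of -0.22. Under these centrings, in the same order, 1 was higher and 6 lower, and 3 were higher and 3 lower. SDC1, the syndecan of epithelia, was 3.33-fold lower (-1.74 ± 0.04), CD151, a tetraspanin partner of laminin-binding integrins, 1.56-fold lower, and SDC2 1.53-fold lower, while DST, which links integrin complexes to keratin, was 1.82-fold higher. The shares called in these 5 lists ran from 64.3% to 85.7%, against 57.5% of all genes. With hybridization-control centring the 5 lists had medians from -0.43 to -0.21, and with poly-A-control centring from -0.06 to 0.16.

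**Figure D5:**
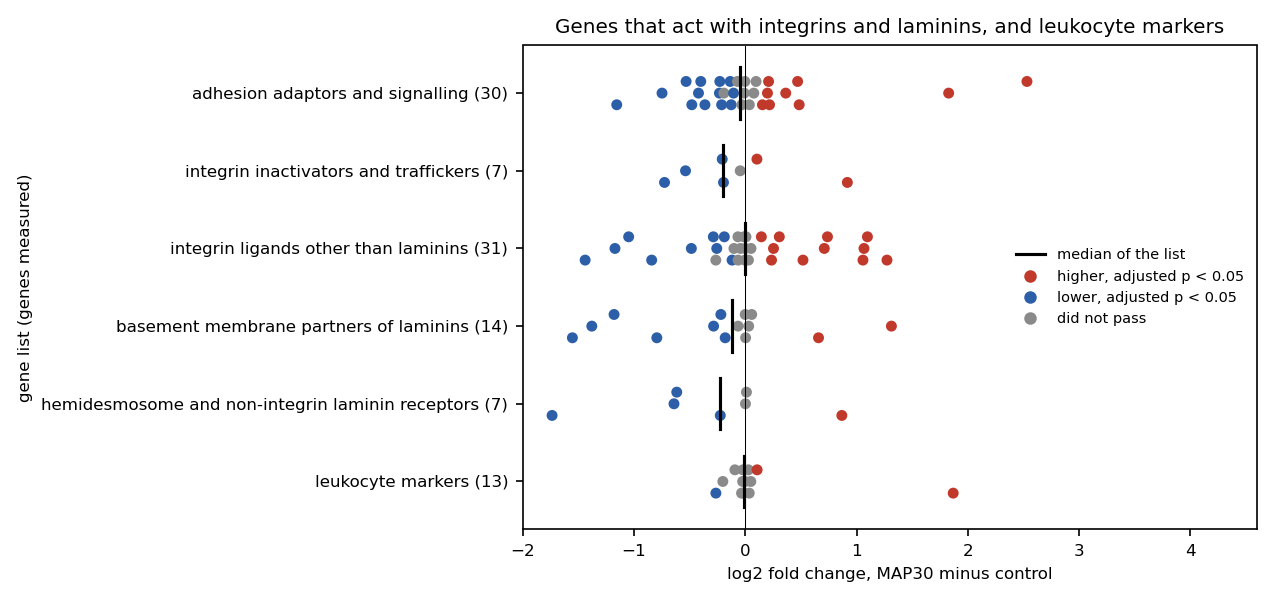
Log2 fold change of each measured gene (points, coloured by call) in 5 lists of genes that act with integrins and laminins and in a list of leukocyte markers, with list medians as lines. The medians lie between -0.22 and 0.00, while single genes reach from -1.74 for SDC1 to 2.53 for LPXN.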

How the data were processed

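RNA of 6 samples of T24 cells, 3 per group, was amplified from the 3' end, labelled with biotin and hybridized to Affymetrix arrays, per the labels' protocols. The authors deposited values for 49395 probe sets on a log scale, read here as log2, centred on each probe set's median over the arrays (to within 5e-07). RMA and MAS5 appear in the submitters' processing notes, with no word on which made these values. The logarithm's base is unstated. Level, background and dim-probe filters are thereby lost, and so is any check of levels. Precision is limited by the number of arrays.

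Gene symbols came from the platform's annotation: 44988 had 1 symbol, 1832 several and 2473 none, and 102 were controls. A gene's value is the mean over its single-symbol probe sets. MAP30 and control were compared with limma 3.58.1 (R 4.3.3; lmFit, eBayes, Benjamini-Hochberg over 18132 genes, threshold 0.05), and single probe sets likewise. The fit was tested on simulated data. Pairs of genes were compared by differences within arrays with a two-sided exact permutation test. The labels do not say whether replicates came from separate cultures. The p-values then measure only the spread of these samples, and it may be technical.

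Members and lists were chosen with earlier results of these data known. Of 139 list entries 131 were measured. Every member may be named; values by array are given for those that passed with at least 1.5-fold change and for some fixed genes, and up to 3 genes per list and direction are named. RAB25 and SPI1, others given to complete a count, and the choice of pairs and promoters came after values were seen. Alternatives were another probe set summary, control and quantile scaling, robust variances, a minimum fold of 1.2, the replicate block and leaving out each array. Applying these to the pairs of genes was chosen after seeing the data.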

Additional observations from a re-analysis of the deposited data

How the results depend on the processing

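Of the 23 called genes, 15 kept direction and call in all 14 alternatives, namely ITGA5, ITGAM, LAMA1, LAMA2, LAMB2 and LAMB3 as higher and ITGA2, ITGAE, ITGB1, ITGB3, ITGB5, ITGB8, LAMA5, LAMB1 and LAMC1 as lower. The other 8 lost the call or turned in at least 1. For the calls of these genes, scaling on spiked-in controls mattered most. With poly-A-control centring 18 integrin and laminin genes were higher, 8906 of all genes were higher (70.3% of calls), and ITGAD (0.039) and ITGB4 (0.049) changed sign. With hybridization-control centring 24 were lower, and of all genes 3087 were higher and 11558 lower (21.1% of calls were higher). As deposited, 46.8% of calls were higher. The sizes of some large changes moved further with quantile normalization than with either control centring. LAMA2 was then 6.08-fold higher, against 8.89-fold as deposited. ITGAM was 4.91-fold higher, against 6.78-fold, and ITGB8 4.38-fold lower, against 3.09-fold. Against a minimum fold of 1.2, 6 members were higher and 9 lower, and 2889 and 3066 of all genes; this rule asks for a larger change by construction. Leaving out 1 array gave 8 to 9 higher and 12 to 13 lower. With the replicate block 8 members were higher and 13 lower, and 4838 and 5483 of all genes; same-numbered arrays share only a number, since their deviations correlated at -0.0396, 0.0702 and 0.0106. Of the 12 genes not called, each was called with at least 1 of the control centrings, which moved the medians of all genes to -0.23 and 0.14. Only ITGA8 and ITGB7 were also called on leaving out 1 array, control replicate 1. A missed call does not show that a gene did not change.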

Other observations

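ITGB6, the chain of the epithelial integrin that activates latent TGF-beta, was read by 2 probe sets that the annotation also ties to LINC02478, and so was not among the 35 genes. The first stood at -0.18, -0.16 and 0.05 in control and at -0.05, 0.21 and 0.10 with MAP30 (0.18 ± 0.09, adjusted p = 0.114 by limma over single probe sets). The second was at -0.06 ± 0.05 (adjusted p = 0.337). The arrays of the groups overlapped in both. Of other genes with an integrin symbol, ITGBL1, which encodes a secreted protein with beta-like repeats, was 1.62-fold lower (-0.70 ± 0.04) with all 5 probe sets lower, and ITGB1BP2, which encodes the muscle chaperone melusin, was 1.26-fold lower (-0.33 ± 0.04). ITGB3BP, a kinetochore gene, was at -0.10 and did not pass (adjusted p = 0.0558).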
